A study of Mus musculus with 5 samples.

Results

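The interval studied here spans 56 kb of mouse chromosome 5, chr5:29185087-29241086 (mm9), and is made up of one 28-kb window assigned to the forebrain enhancer SBE2 and the next assigned to SBE3. Its members are the 5C primer pairs with exactly 1 fragment midpoint in the interval, the other elsewhere in the Shh region, and a separation of at least 56 kb. There were 2406 such pairs of the 33306 listed in each library, and of 29187 pairs in the Shh region at this separation. The choice used positions only and no read counts. The windows of SBE2, SBE3, SBE4 and the ZRS follow the study's map, and the exact positions of the enhancers were not used here, so that values are those of windows and not of the elements themselves. 5C (chromosome conformation capture carbon copy) counts, for each pairing of a forward with a reverse primer, the reads from ligation between 2 cross-linked restriction fragments. The libraries came from CD1 mouse embryos at E11.5: whole fore- and hindlimb buds of many pooled embryos (limb, 2 biological replicates), pooled embryos without limbs and heads (body, 1 library), and pooled heads, labelled neural and cranio-facial (head, 1 sample sequenced as 2 technical libraries). No group carried a mutation or a treatment. All 3 were whole tissues, of which cells expressing Shh are a small part, and 5C holds no expression values with which to check the tissue labels.

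Shh encodes a secreted signalling protein that patterns the limb bud, neural tube and forebrain, and its enhancers are spread over a long gene desert upstream of the gene. SBE2, SBE3 and SBE4 drive its expression in the forebrain, whereas the ZRS, within an intron of Lmbr1, drives it in the posterior margin of the limb bud. In head some cells use the forebrain enhancers at this stage, so head was set against limb and body.

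The interval lay inside the long non-coding RNA 9530036O11Rik (chr5:28784814-29260535, plus strand) and was intronic except for a single exon of 105 bp at chr5:29216454-29216558. It held 20 HindIII sites and 44.4% G+C. Primers sat on 15 fragments, 7 forward and 8 reverse, which covered 77.4% of it. The window with most of Shh, chr5:28765087-28793086, and the window with the ZRS intron of Lmbr1, chr5:29633087-29661086, were each separated from the interval by a gap of 420 kb, so that the interval was midway between gene and limb enhancer.

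The fragment ends are shown because, among the forward fragments, the number of reads followed the base composition of the right-hand end. Each sequence gives the plus strand of mm9 (NCBIM37) up to and including the right-hand HindIII site, which is in capitals. Fragments are numbered f1 to f15 from the Shh side. First come the 3 forward fragments with many reads (f2, f4 and f6), at chr5:29188247-29188279, chr5:29196323-29196355 and chr5:29203777-29203809.
f2: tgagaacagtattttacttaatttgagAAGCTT
f4: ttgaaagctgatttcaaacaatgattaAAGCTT
f6: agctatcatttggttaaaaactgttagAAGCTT
Then come the other 4 forward fragments, all with few reads (f8, f10, f12 and f14), at chr5:29209212-29209244, chr5:29220298-29220330, chr5:29232989-29233021 and chr5:29237079-29237111.
f8: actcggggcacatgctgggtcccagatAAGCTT
f10: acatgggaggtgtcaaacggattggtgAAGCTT
f12: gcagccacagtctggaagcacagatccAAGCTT
f14: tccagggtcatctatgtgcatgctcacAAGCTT
The reverse fragments with the most reads in limb were f3 and f9, with right-hand ends at chr5:29191697-29191729 and chr5:29216439-29216471.
f3: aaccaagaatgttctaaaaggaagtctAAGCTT
f9: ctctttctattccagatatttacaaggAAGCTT

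The interaction frequency (IF) of a primer pair is its reads divided by the reads of the library, times 1000, averaged over all pairs of a window or fragment, unread pairs included. Among the forward fragments, f2, f4 and f6 had 26.7 to 30.0% G+C in the last 30 bases and mean IFs of 0.0203 to 0.0230 in limb replicate 1. In the other samples the same 3 fragments had 0.0227 to 0.0230 (limb replicate 2), 0.0167 to 0.0230 (body) and 0.0224 to 0.0246 (head, libraries summed). The 4 forward fragments with 50.0 to 60.0% G+C had 0.00240 to 0.00711 and 0.00182 to 0.00557 in the limb replicates, 0.00185 to 0.00500 in body and 0.00202 to 0.00479 in head. These ranges did not overlap in any sample. The 8 reverse fragments were less divided: f15, with 53.3% G+C, had 0.0213 in both limb replicates, 0.0174 in body and 0.0214 in head. Over all 15 fragments Spearman's rho between IF and G+C of the right-hand end was -0.66 in head, -0.69 in body, and -0.63 and -0.65 in limb, against -0.18, -0.10, and -0.17 and -0.22 for the left-hand end. Over the 354 fragments of the whole Shh region the values for the right-hand end were -0.45 in head, -0.35 in body and -0.42 in both limb replicates. The points of each comparison share libraries and the PCR, and these are descriptions. On which end of a fragment a primer lies is not given in the sources used here.

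The order of the 15 fragments was nearly the same in every tissue, with Spearman's rho of 0.99 between head and the limb mean and 0.95 between body and the limb mean. Fragment f9 (chr5:29209242-29216468, which ends in the exon) had an IF of 0.0265 ± 0.00276 (limb; SD, n = 2), 0.0237 (body) and 0.0278 (head). It was the highest by the limb mean, in body and in head. Fragment f8, next to it, was the lowest, with 0.00211 ± 0.000411, 0.00185 and 0.00202. Levels thus differed by over 10 times between these neighbouring fragments within each tissue, and much less between tissues for the same fragment. Of the 12 fragments under 200 bp in the whole region, 11 had a body level under 0.5 of the limb level, with a median ratio of 0.344, against 0.553 for 64 fragments of 200 bp to under 1 kb, 0.713 for 213 of 1 to 5 kb and 0.959 for 65 of 5 kb or more. The corresponding medians for head over limb were 1.16, 1.11, 1.04 and 0.972. In body, reads were thus lower on shorter fragments across the region, and the part of this in the body values below was not tested.

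**Figure D1:**
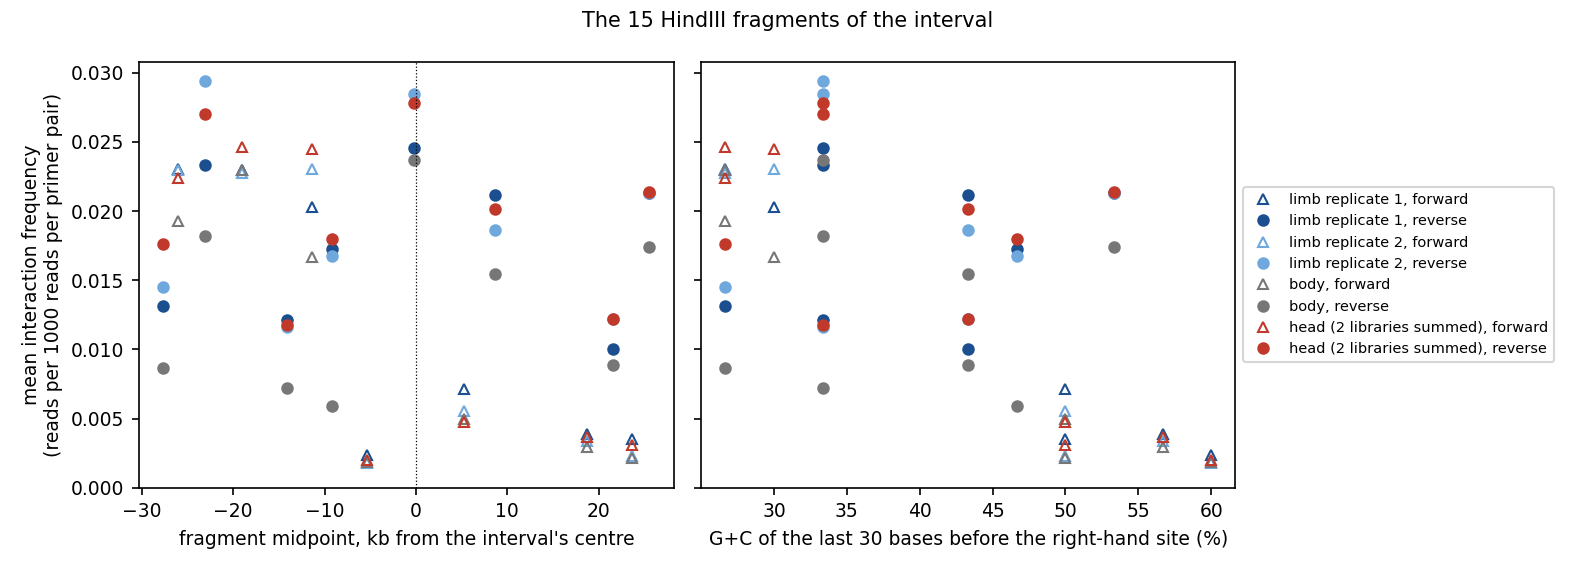
Mean interaction frequency (reads per 1000 reads of the library per primer pair) of the 15 HindIII fragments, against their position in the interval (left) and against the G+C of their last 30 bases (right). Open triangles are forward and filled circles reverse fragments, coloured by sample; the 4 forward fragments with 50.0 to 60.0% G+C lie at or below 0.00711 in all 4 samples, and the other 3 at or above 0.0167.

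Total reads per library ranged from 675954 to 1714491, and member reads were 41662 and 34894 in the head libraries, 29858 in body, and 24507 and 64517 in the limb replicates. This was 8.61 to 9.23% of the reads at 56 kb or more in every library. Body had the fewest members without a read (24.2%) and head library 2 the most (55.5%). The 2 limb replicates differed by more than counting noise (chi-square per degree of freedom 10.9 over 1938 read pairs), and so did the 2 head libraries (21.0 over 1682 pairs), although they are technical. Over the 59 windows, profiles corrected for separation had Spearman's rho of 0.781 between the limb replicates and 0.564 between the head libraries. PCR reads are not independent molecules, so the 95% Wilson intervals below cover counting error only. Body and head had no biological replicate, and no spread between animals could be had for them.

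Contacts with the Shh window were read at like frequencies in head, body and limb replicate 1, and limb replicate 2 was above them. The window took 573 and 493 reads in the head libraries, 539 in body, and 349 and 1299 in the limb replicates. Limb replicate 1 had an IF of 0.0136 (interval 0.0122 to 0.0151) and limb replicate 2 of 0.0199 (0.0189 to 0.0211). Body had 0.0134 (0.0123 to 0.0146) and head 0.0142 (0.0133 to 0.0150), with intervals that overlap that of limb replicate 1. Relative to the average of window pairs equally far apart (observed over expected), the contact with Shh came to 1.28 ± 0.327 in limb (SD, n = 2; 1.05 and 1.51), 1.35 in body and 1.07 in head, with 1.01 and 1.16 in the 2 head libraries. Head and body were inside the limb range, with head library 1 just below it, and in head the contact was not among the higher ones of its profile: Shh ranked 21st of 59 windows in head, 8th in body, and 19th and 4th in the limb replicates.

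Contacts with the ZRS window were higher in limb and head than in body. The reads were 1555 and 1736 in the head libraries, 867 in body, and 875 and 2669 in the limb replicates. The IF was 0.0244 (0.0236 to 0.0253) in head, 0.0121 (0.0113 to 0.0129) in body, and 0.0190 (0.0178 to 0.0203) and 0.0229 (0.0220 to 0.0238) in limb. The body interval lay below all the others. Over all members, too, body had the smallest share of its library's reads, 2.83% against 3.63 to 3.97% in the other libraries. Observed over expected was 1.85 in head, 1.21 in body and 1.63 ± 0.177 in limb (1.51 and 1.76). The head libraries stood on either side of limb replicate 2, at 1.56 and 2.21, so that head and limb did not separate. In head the ZRS ranked 2nd of 59 windows, in body 12th, and in the limb replicates 4th and 3rd. The body interval covers counting error only, and head against body did not pass the test of window pairs given below. When the totals of each primer were balanced, the ZRS value was 1.77 in head, 1.55 in body and 1.28 in limb, so that the low place of body was lost.

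Since both windows were at the same separation, their IFs can be set against each other directly. The ratio of ZRS to Shh was 1.52 and 1.97 in the head libraries (1.73 when summed), 0.899 in body, and 1.40 and 1.15 in the limb replicates (mean 1.27 ± 0.179). The body ratio was the lowest, but its 95% interval for counting error, 0.807 to 1.001, reached 1. Under 11 other settings the ratio of the observed over expected values in head was above that in body in all of them. Limb was above body in all but 1. The settings for the denominator and for isolated contacts only repeated the main ratios, and so are no further support. The body ratio ranged from 0.868 to 2.26 and was above 1 in 4 of the 12 settings. The excess of the ZRS over Shh was seen with the reverse fragments alone. With the 8 reverse fragments the IF ratio was 2.31 and 2.72 in the head libraries, 1.85 in body, and 1.71 and 1.97 in the limb replicates. With the 7 forward fragments it was 0.759 and 0.927 in head, 0.321 in body, and 0.974 and 0.434 in limb. Fragment by fragment, the ZRS was the higher in 6 and 7 of the 8 reverse fragments in the head libraries, 8 in body, and 5 and 8 in limb, but in 3 and 2 of the 7 forward fragments in head and in 1 or 2 elsewhere. Forward and reverse fragments pair with different fragments of each window, and the direction of the ratio followed the primer kind in every library. Body, with a ratio of 1.85 on reverse fragments, was then between the limb replicates.

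**Figure D2:**
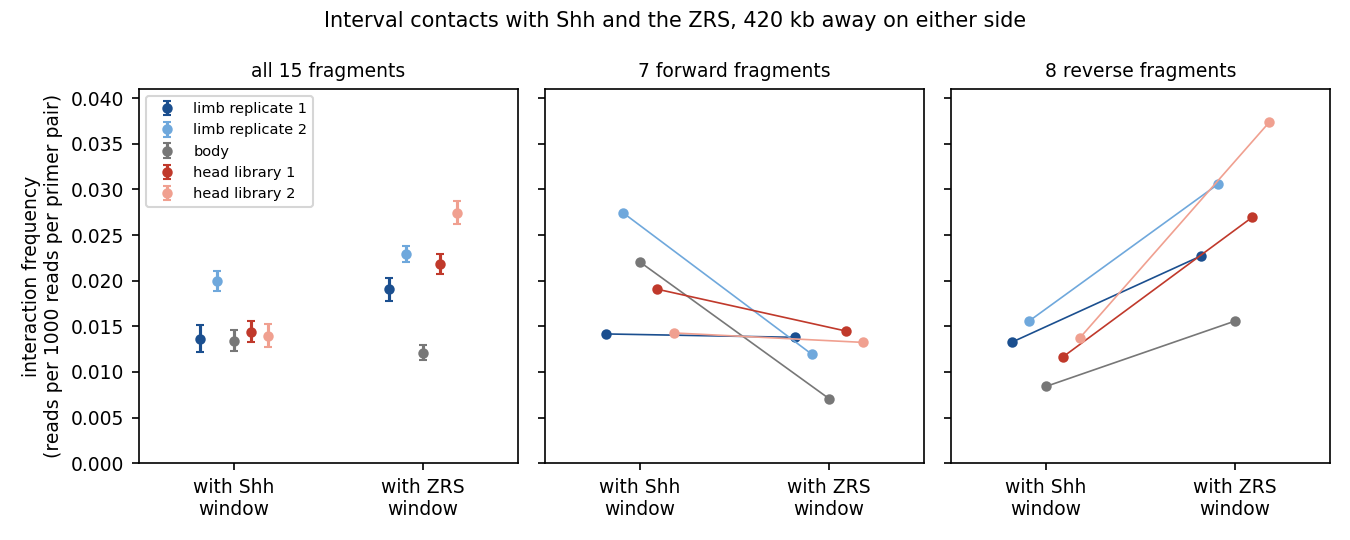
Interaction frequency of the interval with the Shh and the ZRS windows in the 5 libraries, over all fragments (left, bars are 95% Wilson intervals for counting error) and for forward and reverse fragments apart (lines join the values of a library). On the 8 reverse fragments the ZRS is above Shh in all 5 libraries, and on the 7 forward fragments it is below Shh in all 5.

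Within the Shh window, the reads came mostly from fragments 3′ of the gene. Where 4 values are listed below they stand for limb replicate 1, limb replicate 2, body and head in this order, and 5 values end with the 2 head libraries. Fragment chr5:28763979-28767078, which is intergenic, had 158, 586, 176, 205 and 247 reads over 8 primer pairs, and an observed over expected of 2.26, 3.24, 2.09 and 2.16. Fragment chr5:28770697-28780563, also intergenic, had 1.63, 2.51, 2.95 and 1.78. With balanced primer totals the former had 1.30, 1.38, 1.32 and 0.962, and the latter 2.39, 3.69, 2.73 and 1.79. The fragment over the 5′ end of Shh, chr5:28789547-28793709, had 35, 32, 20, 55 and 49 reads and an observed over expected of only 0.50, 0.177, 0.238 and 0.497. It was low in every library. Its right-hand end was the richest in G+C of the fragments of the Shh window, with 63.3%, and is shown for that reason (chr5:28793680-28793712).
Shh 5′ end: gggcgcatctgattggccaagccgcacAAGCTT
After balancing primer totals this fragment had 0.640, 0.437, 0.907 and 1.00, and fragment chr5:28782635-28789524, which covers most of the gene, had 0.635, 1.45, 0.815 and 0.766. Before balancing the latter had 0.575, 1.67, 1.48 and 0.770, so neither fragment of the gene itself was above expectation in head.

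Within the ZRS window the 9 fragments were all in introns of Lmbr1. The fragment chr5:29632212-29635239 was above expectation in every sample, with 158, 423, 169, 425 and 260 reads and an observed over expected of 2.32, 2.37, 2.01 and 3.27 (1.07, 1.12, 1.31 and 1.41 with balanced primer totals). Fragment chr5:29642804-29649071 had 0.882, 2.71, 2.66 and 3.14 (0.507, 1.23, 1.16 and 1.30 with balanced primer totals), with 282 and 376 reads in the head libraries. Fragment chr5:29640676-29641133, of 458 bp, had 1.88, 2.55, 0.843 and 2.24 (0.977, 1.30, 1.04 and 1.40 with balanced primer totals), but 106 reads in one head library and 362 in the other. A short fragment was again low in body: chr5:29652798-29652907, of 110 bp, had an IF of 0.0145 in head, 0.00365 in body, and 0.0167 and 0.00925 in limb. The window next to the ZRS on the desert side, chr5:29605087-29633086, was also high, at 1.51 in head, 1.97 in body, and 1.43 and 2.44 in limb. Over this window, the ZRS window and the next together, the values were 1.44, 1.94, 1.47 and 1.69, against 1.20, 1.28, 1.35 and 1.27 for the 3 windows centred on Shh. In these wider blocks body and head were inside the limb range at the ZRS, and at Shh body was highest by a small step.

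In the window directly 5′ of Shh, chr5:28793087-28821086, both head libraries were above limb and body. Its reads were 920 and 706 in the head libraries, 574 in body, and 429 and 1051 in limb. Observed over expected was 1.52 and 1.65 in the head libraries, 1.47 in body, and 1.19 and 1.20 in the limb replicates. The step over body was small. The window ranked 4th of 59 windows in head, 6th in body, and 13th and 10th in the limb replicates. With balanced primer totals it had 1.43 in head, 1.53 in body, and 1.15 and 1.51 in limb. Head was then below body and limb replicate 2. Most of the head reads lay on fragments chr5:28799299-28801546 (400 and 286 reads) and chr5:28805019-28805807 (196 and 231 reads), in introns of 9530036O11Rik and Gm17493. The fitted log2 fold change of head over limb and body was 0.20 (SE 0.35, edgeR quasi-likelihood, adjusted p = 0.955), and the difference did not pass the test.

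The highest value of the whole profile, in every tissue, was at another place in the desert. Window chr5:28849087-28877086, with the predicted gene Gm10290, had 613 and 336 reads in head, 316 in body, and 183 and 798 in limb. Its observed over expected came to 3.73 in head, 3.32 in body, and 2.33 and 3.61 in limb (2.97 ± 0.904). All 8 of its primer pairs rested on a single fragment, chr5:28870608-28876511. With balanced primer totals it was 1.11, 2.27, 1.45 and 1.76 and no longer ranked first in any sample, so its place depends on how a fragment with many reads is treated. Window chr5:29353087-29381086, without a gene, stood at 1.45, 1.39, 1.58 and 1.49, and likewise was lower, at 0.922, 0.862, 0.856 and 0.770, with balanced totals. The SBE4 window, chr5:29101087-29129086, separated from the interval by 84 kb, was near expectation at 1.11 in body, and 1.15 and 1.03 in limb. In head it was at 1.24, but the libraries differed, with 0.9895 in head library 1 and 1.64 in head library 2. Of the other high windows, chr5:28821087-28849086 was high in limb replicate 1 (1.83) and body (2.08) but not in limb replicate 2 (0.860) or head (0.958), and chr5:28961087-28989086 had 7 primer pairs and 0.563, 1.16, 1.64 and 1.36. The lowest value between Shh and the ZRS was at chr5:29437087-29465086, with 0.396, 0.478, 0.449 and 0.485.

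**Figure D3:**
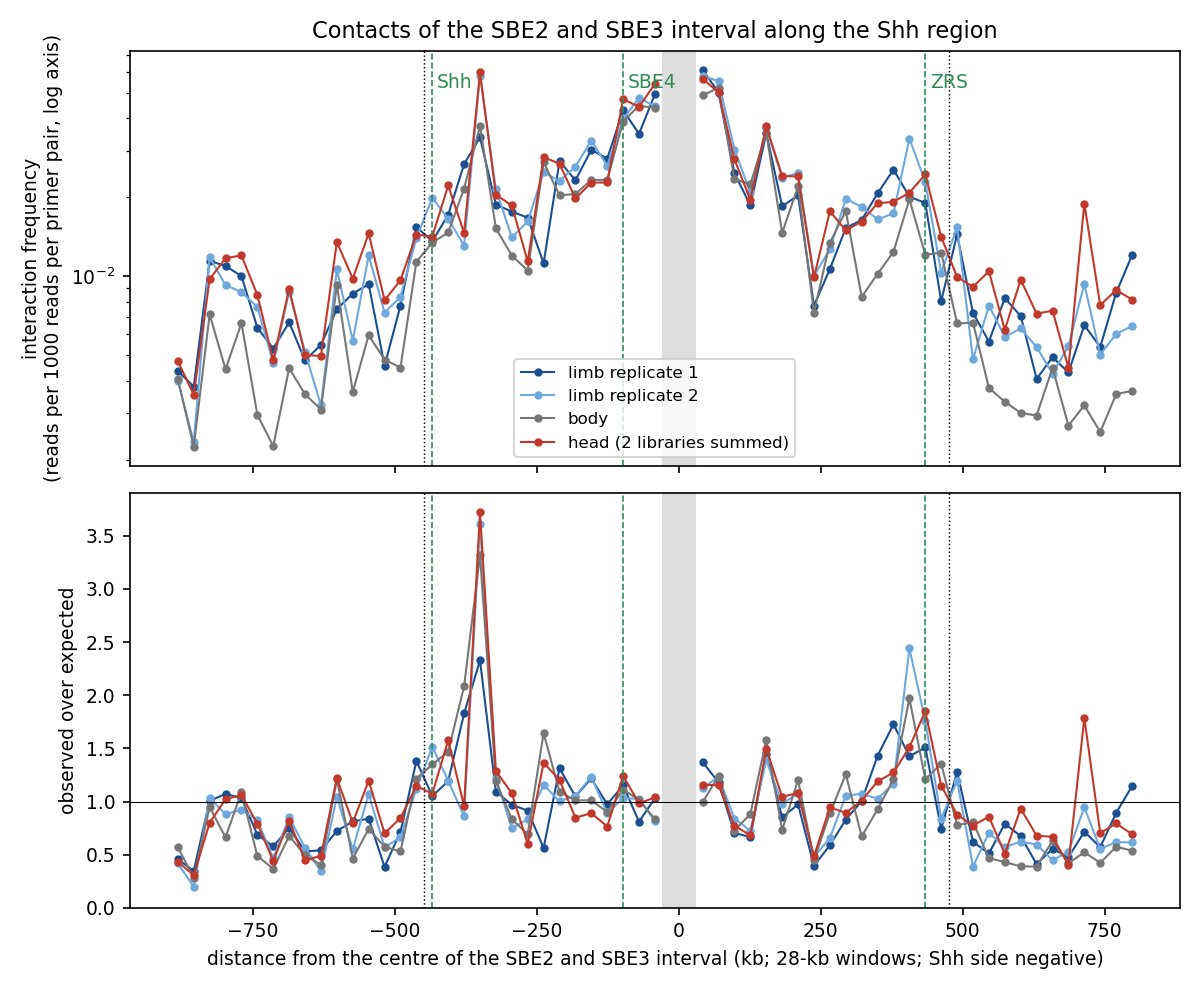
Interaction frequency (top, log axis) and observed over expected (bottom) of the interval with each of the 59 other 28-kb windows, against the distance from its centre in kb. Green dashed lines mark the Shh, SBE4 and ZRS windows, dotted lines the edges of the domain from the Shh window to the window beyond the ZRS, and grey the interval; the highest point of all 4 samples, 2.33 to 3.73, lies between Shh and SBE4.

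Contacts of the interval were more frequent inside the domain that runs from the Shh window to the window beyond the ZRS than outside it. The mean observed over expected of the 31 windows inside was 1.17 in head, 1.19 in body, and 1.11 and 1.16 in the limb replicates, and that of the 28 outside 0.793 in head, 0.610 in body, and 0.732 and 0.690 in limb. Inside over outside was 1.60 ± 0.123 (limb), 1.95 (body) and 1.48 (head). With balanced primer totals the ratio was 0.992 in head, 1.42 in body, and 1.43 and 1.28 in the limb replicates, so the contrast in head was lost. Between the 2 sides of the interval there was little asymmetry. Of 16 windows at matched distances, the ZRS side was higher in 7 in head, 8 in body, and 5 and 8 in the limb replicates.

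Most gene windows outside the domain were below expectation. On the Shh side, the first window of Insig1, a regulator of sterol synthesis, had 1.02 ± 0.0187 (limb), 0.948 (body) and 0.80 (head), and the next 0.977 ± 0.135, 0.663 and 1.02. There the head libraries were far apart, with 0.369 and 1.25 in the first window and 1.53 and 0.442 in the next. The window of En2, a homeobox gene of the midbrain and hindbrain, had 0.442 in head, 0.366 in body, and 0.577 and 0.466 in limb. Those of Cnpy1 ranged from 0.343 to 0.851 over all samples. Of the 5 windows of Rbm33, an RNA-binding protein gene, the one nearest Shh was above expectation, with 1.38, 1.12, 1.22 and 1.15, and chr5:28653087-28681086 was above it in limb replicate 2 and head alone, with 0.838, 1.07, 0.742 and 1.20. On the ZRS side, Rnf32, a RING finger gene, and most of Lmbr1 lie within the domain, with 1.00 and 1.07 (limb), 0.672 (body) and 1.01 (head) for the first window of Rnf32, and 1.73, 1.17, 1.21 and 1.27 for the Lmbr1 window chr5:29577087-29605086. Directly beyond the domain, the window with the 5′ end of Lmbr1, chr5:29689087-29717086, was above expectation in both limb replicates but not in body or head, with 1.28, 1.20, 0.779 and 0.877. Farther on, Nom1 and Mnx1, a homeobox gene of motor neurons, had 0.390 to 0.791 in limb and body over their 3 windows, and 0.509 to 0.933 in head.

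Head stood above limb and body in a share of windows near that of the whole region, and had a higher background between chromosomes. Both head libraries exceeded limb and body in 8 of 59 windows (13.6%, against 11.4% of all window pairs of the region). Of the 8, 4 were beyond Lmbr1, and no share over like pairs of the region was computed for these. Both head libraries were below limb and body in 3 windows (5.08%, against 12.2%). Those windows were next to each other, from chr5:29017087-29045086 to chr5:29073087-29101086 on the Shh side of SBE4. In these 3 windows limb had 0.889 to 1.23, body 0.901 to 1.01, and the head libraries 0.759 to 0.912. With fragments of Usp22 on chromosome 11, which serve as a control region, the 15 fragments had 179 and 208 reads in the head libraries, 38 in body, and 8 and 23 in limb, over 83 pairs. The mean IF on the ZRS-side outer windows was above that background 3.66 times in head and 8.45 times in body, but 47.7 and 41.4 times in limb. The part of this background in the head values of the outer windows was not tested.

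The test of reads per window pair called no contact of the interval in head. In edgeR's quasi-likelihood test of head against limb and body (limb replicates, body and the summed head libraries, 4 samples), 0 of 59 windows paired with the interval passed an adjusted p of 0.05, and 0 of all 1703 window pairs (0%). At an unadjusted p under 0.05 there were 1 of 59 members and 90 of 1703 pairs (5.28%), and DESeq2 called 8 pairs, none with the interval. The fitted log2 fold change was above 0 in 29 of 59 windows (783 of 1703 pairs, 46.0%), with a median of -0.01 for the members and -0.05 for all pairs. The contact with Shh had a log2 fold change of -0.39 (SE 0.37, adjusted p = 0.929) and that with the ZRS of 0.22 (SE 0.39, adjusted p = 0.955). Both were about as large as their errors or smaller. Against limb alone, 0 of 1703 pairs were called (0%; 103, or 6.05%, at the unadjusted threshold, and 5 by DESeq2), with -0.33 (SE 0.32) for Shh and 0.13 (SE 0.28) for the ZRS. Against body alone 15 pairs were called (0.881%) and 0 members, with 6 members at the unadjusted threshold (9.57% of all pairs passed it). There the contact with Shh had -0.51 (SE 0.37, adjusted p = 0.704) and that with the ZRS 0.43 (SE 0.33, adjusted p = 0.714). The last 2 comparisons took their spread from the limb replicates alone. With these samples, a difference about the size of its error could not be told from none.

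The lowest p among the members was at Ube3c, a ubiquitin ligase gene at the far end of the region. Window chr5:29913087-29941086 took 387 and 736 reads in the head libraries, 102 in body, and 132 and 481 in limb. Its observed over expected was 1.16 and 2.49 in the head libraries, 0.522 in body, and 0.717 and 0.945 in limb. Both head libraries were highest, but far apart. The log2 fold change over limb and body was 1.38 (SE 0.41, unadjusted p = 0.00664, adjusted p = 0.665), over limb 1.16 (SE 0.38, adjusted p = 0.745) and over body 1.97 (SE 0.47, adjusted p = 0.117). With head library 2 as the only head sample, it was 1.99 and passed the threshold (adjusted p = 0.0259), and with head library 1 alone it was 0.68 (adjusted p = 0.727). One primer pair, fragment f13 with chr5:29918393-29927218, supplied 41.1% of the head reads, with 38, 233, 13, 75 and 386 reads. The other members with the lowest p were the windows of Nom1 (log2 fold change 0.65, SE 0.37) and of Ube3c at chr5:29941087-29969086 (0.64, SE 0.38), window chr5:28933087-28961086 (-0.58, SE 0.36) and window chr5:29829087-29857086 (0.58, SE 0.36), each with an adjusted p of 0.911.

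**Figure D4:**
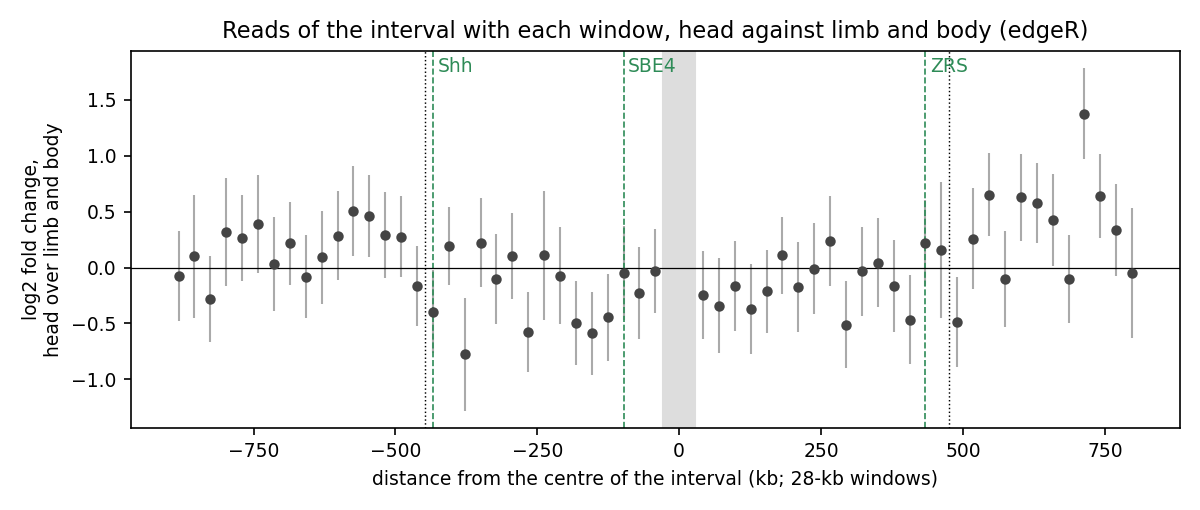
Fitted log2 fold change of the reads between the interval and each of the 59 windows, head over limb and body (edgeR, 4 samples), against the distance from its centre in kb. Bars are 1 standard error; Shh is at -0.39, the ZRS at 0.22 and the highest window, at Ube3c, at 1.38.

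The 2 windows of the interval were not alike. Over all members, the SBE2 window had an observed over expected of 1.13 ± 0.0230 (limb), 1.07 (body) and 1.17 (head), against 0.674 ± 0.0531, 0.663 and 0.652 for the SBE3 window, and the difference was larger than the spread between the limb replicates. The SBE3 window holds 3 of the 4 forward fragments with few reads (f10, f12 and f14). Fragment f9, with the highest IF, was counted in the SBE2 window by its midpoint. It runs on to 29216468, beyond the end of that window at 29213086. How far the difference between the windows rests on these fragments was not tested. With Shh, the SBE2 window had 1.20 and 1.69 in the head libraries, 1.40 in body, and 1.18 and 1.67 in limb. The SBE3 window had 0.695 and 0.454 in the head libraries, 1.27 in body, and 0.835 and 1.26 in limb, over 102, 414, 201, 146 and 83 reads. Head was thus lowest in both libraries for the contact of the SBE3 window with Shh. With the ZRS, SBE2 had 1.72 ± 0.251 (limb), 1.28 (body) and 1.96 (head), and SBE3 1.51 ± 0.0677, 1.10 and 1.68, but 1.09 in one head library and 2.55 in the other. With the window 5′ of Shh, SBE2 had 1.38 ± 0.142, 1.78 and 2.09, and SBE3 0.902 ± 0.204, 1.00 and 0.738. The head value described above, before balancing, thus came from the SBE2 side. With the SBE4 window, SBE2 had 1.26 ± 0.0412, 1.16 and 1.42, and SBE3 0.760 ± 0.177, 1.01 and 0.884. Here the head libraries had 1.12 and 1.95 for SBE2, and 0.708 and 1.12 for SBE3. When the 2 windows were tested apart, 0 of their 117 window pairs passed in any of the 3 comparisons. Of all 1761 window pairs in that setting, 0 passed against limb and body, 0 against limb and 16 against body.

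Finally, the interval was compared with the other windows between Shh and the ZRS, each taken as a viewpoint in the same way (26 windows, chr5:28849087-29577086). Towards Shh, the SBE2 window ranked 13th by the limb mean, 16th in body and 11th in head, and the SBE3 window 15th, 17th and 21st. Median values over the 26 windows were 1.27, 1.59 and 1.12, so that neither was among the windows with the highest values. The SBE4 window, another forebrain enhancer, was at 0.410 in head, 1.83 in body and 1.03 in both limb replicates, the lowest of the 26 in head, beside 0.411 for chr5:28877087-28905086. The head libraries differed, with 0.495 (21st of 26) and 0.289 (26th). Towards the ZRS, the SBE2 window ranked 8th, 9th and 4th and the SBE3 window 14th, 15th and 8th, with medians of 1.53, 1.17 and 1.48. The windows on the ZRS side of the interval mostly had higher values with Shh than those on the Shh side of it. The place of the rise differed between samples. Windows chr5:29129087-29157086 and chr5:29157087-29185086, next to the interval on the Shh side, had 2.15 and 1.56 in body. For limb replicate 1 they had 1.55 and 1.93. SBE2 and SBE3 were below these values, at 1.40 and 1.27 (body) and 1.18 and 0.835 (limb replicate 1). For limb replicate 2 the same windows had 0.691 and 1.41, and for head 1.26 and 0.977. There the SBE2 window was above them, at 1.67 and 1.39. The rest of the desert was not tested against the interval.

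**Figure D5:**
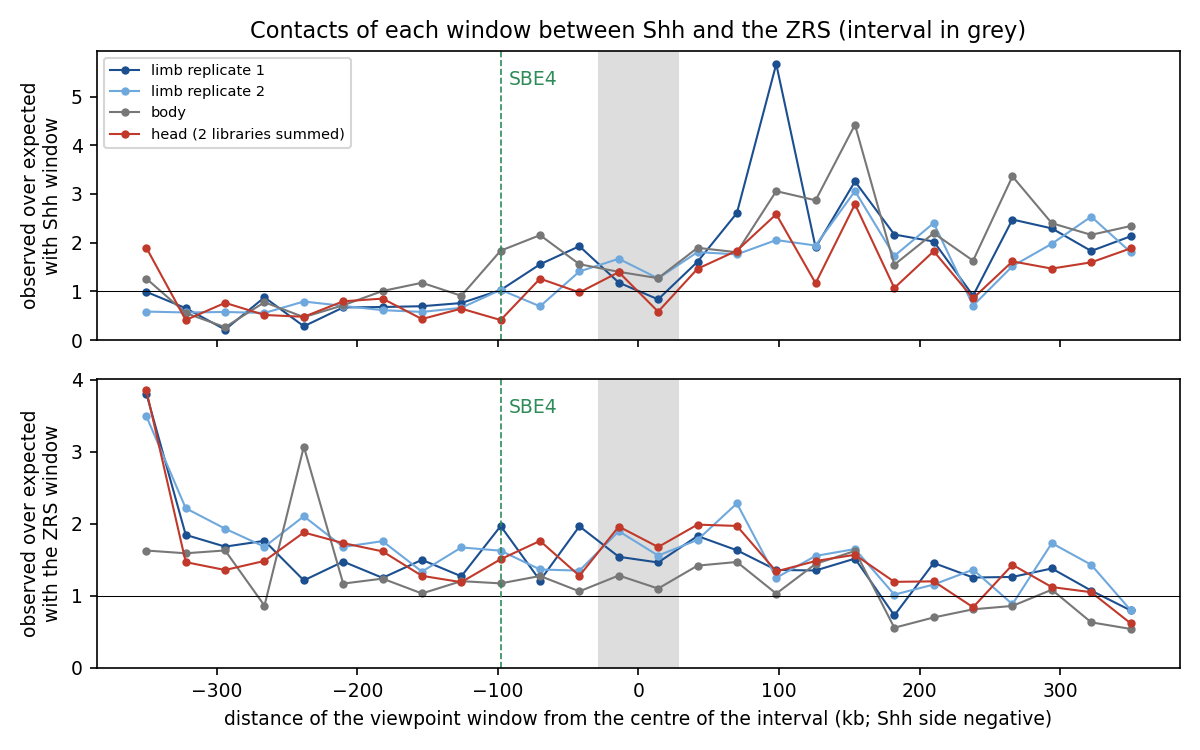
Observed over expected of each of the 26 windows between Shh and the ZRS with the Shh window (top) and the ZRS window (bottom), against its distance from the centre of the interval in kb, for the limb replicates, body and head (libraries summed). The 2 windows of the interval, in grey, lie at 0.583 to 1.67 with Shh and 1.10 to 1.96 with the ZRS.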

How the data were processed

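5C libraries were made by the authors from formaldehyde-fixed cells cut with HindIII, with alternating forward and reverse primers, and sequenced on an Ion PGM. The deposited values are read counts per primer pair, not normalised, from a 5C pipeline on Galaxy, with mm9 coordinates. The distance between fragments was taken from the deposited tables.

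The members and lists were chosen with earlier results of these data known. Counts were divided by the library total and multiplied by 1000, and averaged over primer pairs in 28-kb windows counted from 28317087. Expected values were the mean over window pairs of the Shh region at the same separation, from 56 kb. They left out 8 isolated contacts (at least 100 reads and 20 times their neighbours in at least 2 libraries, none a member). Head libraries were summed. The HindIII sites were checked on the NCBIM37 sequence, and 353 of 354 fragments had one at both ends. Genes came from the GENCODE annotation of that build.

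Reads per window pair were tested with edgeR 4.0.16 (quasi-likelihood, TMM, filterByExpr, Benjamini-Hochberg at 0.05 over 1703 window pairs) in R 4.3.3, and DESeq2 1.42.0 was an alternative. Spread came from the limb and body samples, or from the limb replicates alone where head was set against limb or body only. The profile and the test were tested on simulated data. Python 3.11.15, numpy 2.4.6, pandas 2.3.3 and scipy 1.17.1 were used.

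Windows named are those of Shh, the ZRS, SBE4 and the annotated genes, the 5 with the highest observed over expected in each tissue, and the 5 with the lowest p. Balancing divided each primer pair by the product of the mean values of its 2 primers. Intervals are 95% Wilson intervals, and the floor is 3 reads. Pooled embryos and the technical head libraries allowed no spread between animals.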

Additional observations from a re-analysis of the deposited data

Results flagged for a closer look

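The ratio of the IF with the ZRS window to that with the Shh window was 1.52 and 1.97 in the head libraries and 1.40 and 1.15 in limb, all above 1, but 0.899 in body, with a 95% interval for counting error of 0.807 to 1.001. It is listed because body lay on the other side of 1 from every limb and head library. The difference between tissues was not tested, since body is a single library. The direction depended on the primer kind, as given above.

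Reads between the 15 fragments and the control region at Usp22, on another chromosome, were 179 and 208 in the head libraries, 38 in body, and 8 and 23 in limb. They are listed because such contacts between chromosomes lie outside the comparisons made here and were above the 3 reads that a count of 0 allows in every library.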

How the results depend on the processing

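No paired analysis was possible because limb, body and head share no replicate numbers that pair their samples. Leaving out or weighting primer pairs differently moved the levels more than a cap, which moved no value beyond its spread. The denominator cancels in observed over expected, and no member was an isolated contact. Including those contacts in the expected values also changed none of these values. The settings for denominator and isolated contacts thus returned the main values and are no check on them. With balanced primer totals, observed over expected was 0.982 with Shh in head, and 1.28, 1.55 and 1.77 with the ZRS in limb, body and head. By the median over primer pairs it was 0.717, 0.693 and 0.505 with Shh (limb, body, head) and 2.41 with the ZRS in head. Over read pairs alone it was 0.923, 1.18 and 0.871 with Shh and 1.31, 1.09 and 1.44 with the ZRS. In 14-kb windows it was 0.534, 0.604 and 0.481 with Shh, and 1.36 (body) and 1.97 (head) with the ZRS. Over 3 windows it was 1.27 with Shh in head, and 1.47 (body) and 1.69 (head) with the ZRS. From the SBE2 window alone head had 1.39 and 1.96, and from the SBE3 window 0.583 and 1.68, with 1.10 in body for the ZRS. Leaving out a library gave 1.05 to 1.51 (Shh) and 1.51 to 1.76 (ZRS) in limb and 1.01 to 1.16 and 1.56 to 2.21 in head.

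In the test of head against limb and body, with 0 calls, DESeq2 made 8 and leaving out a library gave 1 to 62, the highest without head library 1, 14 without limb replicate 1 and 7 without limb replicate 2. Against limb DESeq2 made 5 calls and leaving out a head library gave 0 to 57. Against body, with 15 calls, the test over single primer pairs made 0 (860 at an unadjusted p under 0.05), that without isolated contacts 9, and leaving out a head library gave 5 to 97. The only members called under any setting were the 2 Ube3c windows, without head library 1. The log2 fold change with the ZRS turned to -0.018 against limb and body and to -0.112 against limb without head library 2 (0.519 and 0.426 without head library 1), and that with Shh to 0.077 against body when library totals replaced TMM, which moved the median of all window pairs from -0.02 to 0.57. The cause was not tested. Depth limits single primer pairs most: 24.2 to 55.5% of the members had no read in a library, and the 3 reads that a count of 0 allows equal an IF of 0.00175 to 0.00444 for 1 pair.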

Other observations

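The primer pair of the interval with the most reads differed between tissues. In limb replicate 1 it was f9 with chr5:29277402-29281527 (147 reads, against 291, 181, 96 and 132 in limb replicate 2, body and the head libraries). In limb replicate 2 it was f3 with chr5:29060962-29068732, with 330 reads, against 44 in limb replicate 1, 133 in body, and 62 and 34 in head. In body it was f9 with chr5:29137043-29154044 (237 reads, against 70 and 134 in limb, and 136 and 43 in head). In head it was f13 with the Ube3c fragment described above, at 461 reads, the only one of these pairs separated by more than 150 kb. Single pairs varied between technical libraries: f11 with chr5:29277402-29281527 had 104 reads in one head library and 0 in the other.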
